A study of Mus musculus with 8 samples.

Results

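Itga6, Pdk1 and Rapgef4 lie next to each other on mouse chromosome 2, with Slc25a12, Hat1 and Metap1d before them. These 6 protein-coding genes, of 53465 genes in the count tables, were taken as neighbours on a stretch from 71271063 to 72257474 (GRCm38). They were chosen because the difference between NOD/ShiLtJ and C57BL/6J thymocytes was seen to change direction along them. Their strain differences are therefore given as a description, with values in every library and no test, and tests are given only for other genes.

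RNA was sequenced from sorted CD4+ CD8+ (double-positive) thymocytes of NOD/ShiLtJ mice (NOD, an inbred strain that develops autoimmune diabetes) and of C57BL/6J mice (a common inbred strain), with no other allele or treatment named. Each strain had 4 libraries, which fall into 2 samples of 2 libraries by the B number in their titles. The labels give no age or sex, do not spell out the B and T numbers and do not say that the B numbers are separate animals. The p-values below therefore speak of the spread among these 4 samples alone, and that spread may be technical.

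Reads in genes numbered between 23.533 and 30.371 M in NOD libraries and between 8.527 and 15.702 M in C57BL/6J libraries. Across libraries, log2 levels correlated at 0.976 to 0.989 within a sample, at 0.96 to 0.982 between samples of a strain and at 0.922 to 0.956 between strains. Both markers used for the sort were abundant: Cd4 averaged 1293 ± 66.4 CPM in NOD and 1251 ± 159 CPM in C57BL/6J, and Cd8a averaged 1660 ± 30.04 CPM in NOD and 1563 ± 120 CPM in C57BL/6J. CPM are counts per M reads in genes, scaled by the TMM method, and means here and below are given ± SD over the 2 samples of a strain. In bulk samples, fewer cells of a type and less RNA per cell cannot be told apart.

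Of the 6 genes, 3 act at the cell surface, in signalling and in the choice of fuel. Itga6 encodes the integrin alpha 6 chain, which pairs with the beta 1 or beta 4 chain into a receptor for laminin, and alpha 6 beta 1 is a laminin receptor of thymocytes. Rapgef4 encodes EPAC2, an exchange factor that is switched on by cyclic AMP and loads GTP onto Rap GTPases, which in lymphocytes raise the adhesiveness of integrins. Pdk1 encodes a pyruvate dehydrogenase kinase (not the phosphoinositide-dependent kinase Pdpk1), which phosphorylates and inhibits the enzyme complex that feeds pyruvate into the mitochondrial tricarboxylic acid cycle.

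The other 3 serve basic processes of the cell. Slc25a12 encodes aralar, a mitochondrial carrier that exchanges aspartate for glutamate in the malate-aspartate shuttle. Hat1 encodes the histone acetyltransferase that acetylates newly made histone H4 before it is built into chromatin. Metap1d encodes a mitochondrial methionine aminopeptidase, which removes the first methionine from new proteins.

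Reference promoters of 3 of the neighbours are shown: Rapgef4 and Pdk1, which lie side by side and differed between strains in opposite directions, and Slc25a12, which begins the stretch and was lower in NOD like Pdk1. They come from RefSeq (GRCm38.p6, the genome of C57BL/6J), cover 250 bases before to 50 bases after the start, and run 5′ to 3′ on the gene's own strand. Of the 6 genes, 5 had an entry, and Itga6 did not. Capitals mark matches to the motifs searched on both strands: GGGCGG (GC box), TATAAA (the box some core promoters carry), CCGGAAG (Ets), TGTGGT (Runx), CAGCTG (E box), ACGTG (core of the hypoxia response element) and ATCAAAG (TCF).
Rapgef4, chr2:71980965-71981264, plus strand: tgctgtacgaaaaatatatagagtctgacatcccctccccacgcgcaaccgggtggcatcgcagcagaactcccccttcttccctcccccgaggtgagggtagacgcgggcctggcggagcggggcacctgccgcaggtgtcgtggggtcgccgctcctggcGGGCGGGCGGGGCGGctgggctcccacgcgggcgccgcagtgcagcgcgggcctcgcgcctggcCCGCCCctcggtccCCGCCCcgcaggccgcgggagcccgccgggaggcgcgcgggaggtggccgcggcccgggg
Pdk1, chr2:71872974-71873273, plus strand: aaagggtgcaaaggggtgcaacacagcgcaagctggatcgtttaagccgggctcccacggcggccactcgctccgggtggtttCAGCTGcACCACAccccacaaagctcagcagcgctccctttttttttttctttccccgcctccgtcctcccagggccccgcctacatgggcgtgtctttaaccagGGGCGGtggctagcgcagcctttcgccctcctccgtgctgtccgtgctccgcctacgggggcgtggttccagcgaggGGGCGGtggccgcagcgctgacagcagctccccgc
Slc25a12, chr2:71367706-71368005, minus strand: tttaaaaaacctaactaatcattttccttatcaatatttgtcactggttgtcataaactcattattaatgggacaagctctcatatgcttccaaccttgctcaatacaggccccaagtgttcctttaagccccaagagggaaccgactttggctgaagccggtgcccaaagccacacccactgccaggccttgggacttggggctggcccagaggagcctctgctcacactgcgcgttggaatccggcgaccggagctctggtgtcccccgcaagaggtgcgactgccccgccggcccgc

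The Rapgef4 promoter was the most GC-rich of the 3, with 76.7% G and C and 40 CpG, against a median of 52.7% and 7 CpG over 32851 RefSeq promoters of the same length. It held 5 GC boxes, of which 3 overlap in 1 run between 88 and 74 bases before the start, and matches to no other motif searched. The Pdk1 promoter (66.0% G and C, 25 CpG) held GC boxes at 62 bases before and 15 bases after the start, an E box at 167 bases before it and, close after the E box, a Runx match at 160 bases before it. Table entries gave Pdk1 a second start 1680 bases downstream, whose promoter held 40.3% G and C, 2 CpG and none of the motifs. The Slc25a12 promoter (54.3% G and C, 12 CpG) held none of them either. Of all 32851 promoters, 35.7% held a GC box, 16.8% a Runx match, 16.3% an E box, 19.6% the hypoxia core, 13.6% TATAAA, 8.86% an Ets match and 3.73% a TCF match. A match to such short letters is a description of the reference sequence, and these sequences do not show what NOD carries.

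In chromosome order, the log2 fold change (NOD over C57BL/6J) was below 0 for the first 3 genes, above 0 at Itga6, below 0 at Pdk1 and above 0 at Rapgef4. Rapgef4 was 10.36-fold higher in NOD, Itga6 was 3.357-fold higher, and Pdk1 stood at 0.2467 of its C57BL/6J level. Slc25a12 stood at 0.5538, Hat1 at 0.7817 and Metap1d at 0.9381 of the C57BL/6J level, but the libraries of the strains overlapped for Hat1 and Metap1d. The changes of direction thus rest on Slc25a12 and the last 3 genes. Itga6 ends 14.8 kb before Pdk1 starts, and Pdk1 ends 77.4 kb before Rapgef4 starts, all on the plus strand. Between Metap1d and Itga6 lie 220.4 kb, while Slc25a12 and Hat1 are 21.2 kb apart and Hat1 and Metap1d 11.7 kb.

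**Figure D1:**
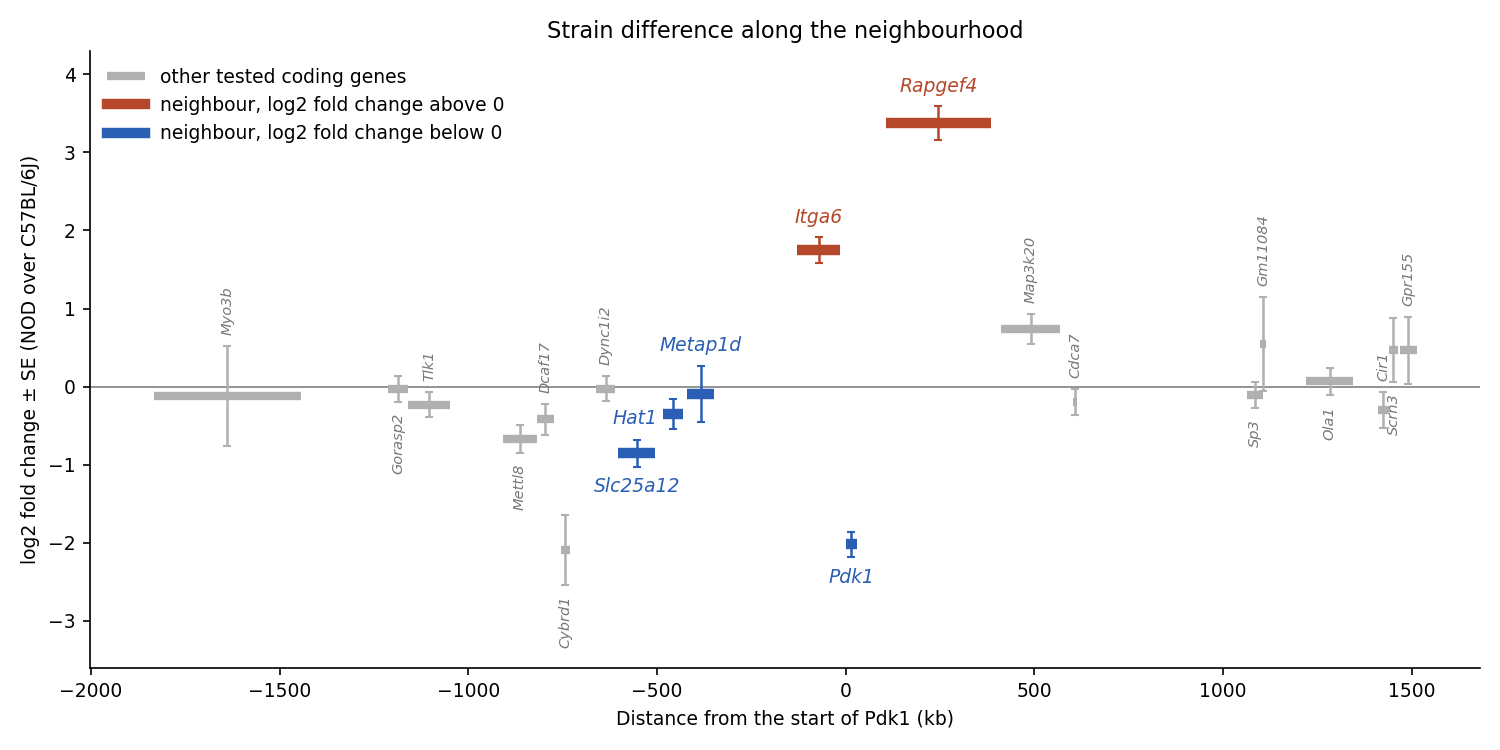
The horizontal axis is the distance from the start of Pdk1 in kb and the vertical axis the log2 fold change (NOD over C57BL/6J) of each tested protein-coding gene, with bars of 1 SE and the width of each mark showing the extent of the gene. Itga6 and Rapgef4 stand at 1.75 and 3.37, with Pdk1 at -2.02 between them, while most genes around them lie near 0.

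Of 17291 genes tested over the whole table by edgeR's quasi-likelihood test, 637 (3.68%) had an adjusted p under 0.05, 330 of them (1.91%) higher and 307 (1.78%) lower in NOD. The NOD and C57BL/6J libraries did not overlap for 2963 genes (17.1%). All 6 neighbours passed the filter on low counts. For 4 of the 6 the libraries did not overlap, and the same number met the call rule. Since the genes were chosen by this contrast, nothing is read from those counts.

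**Figure D2:**
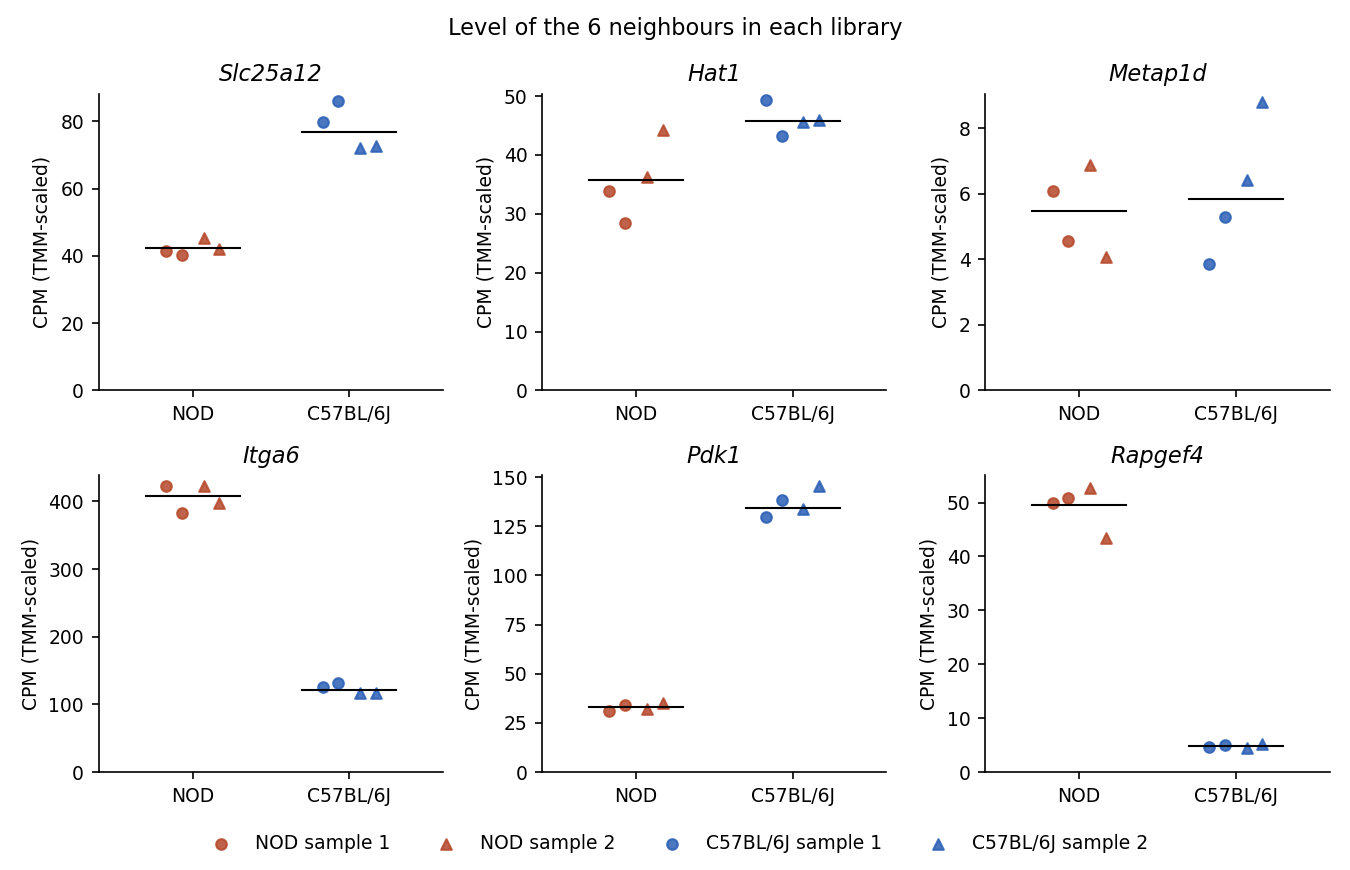
Each panel shows 1 gene, with CPM of every library on the vertical axis (linear, from 0), circles for sample 1, triangles for sample 2 and a line at the mean of the 2 samples of a strain. The 4 NOD and 4 C57BL/6J points are separate for Slc25a12, Itga6, Pdk1 and Rapgef4 and overlap for Hat1 and Metap1d.

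Itga6 (ENSMUSG00000027111, chromosome 2, 71745616 to 71858416, plus strand) was the most abundant of the neighbours in NOD. Its level was 422.8 and 382.2 CPM in the libraries of NOD sample 1 and 423.3 and 397.7 CPM in those of NOD sample 2, against 125.7 and 132.1 CPM in C57BL/6J sample 1 and 117.1 and 117.4 CPM in C57BL/6J sample 2. Every NOD library was above every C57BL/6J library, and libraries of 1 strain differed by at most 1.13-fold. The means were 408.6 ± 5.07 CPM in NOD and 121.7 ± 6.83 CPM in C57BL/6J, a log2 fold change of 1.75 ± 0.16 (SE). Per kb of exon, Itga6 stood at 45.3 ± 0.562 CPM in NOD, above 94.5% of 11791 tested protein-coding genes, and at 13.5 ± 0.757 CPM in C57BL/6J, above 73.8% of them. The 4 annotated genes that overlap Itga6 had 0 counts in every library.

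Among the integrin alpha chains, Itga6 took the second place in NOD and the third in C57BL/6J. Its share of the summed level per kb of 18 alpha chains was 36.1% to 39.1% in NOD libraries and 10.7% to 14% in C57BL/6J libraries. Itgal, the alpha chain of the leukocyte integrin LFA-1, held 42.1% to 46.2% in NOD and 57.7% to 61.9% in C57BL/6J. Itga4, which pairs with the beta 1 or beta 7 chain, held 9.56% to 13.0% in NOD and 16.6% to 18.2% in C57BL/6J. A share falls when another chain rises, so these shares are not independent of the Itga6 level itself.

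Of 18 other integrin chains tested, 1 was lower in NOD (5.56%, against 1.78% of all tested genes), 0 were higher (edgeR, with 4 of the 18 at an unadjusted p under 0.05 in either direction and 2 called by DESeq2) and 17 did not pass the test, with a median log2 fold change of -0.25 against 0.02 over all tested genes. The one that passed was Itga5, the alpha chain of the fibronectin receptor. It had 6.23 and 5.04 CPM in NOD sample 1 and 3.99 and 4.12 CPM in NOD sample 2, against 20.66 and 25.3 CPM in C57BL/6J sample 1 and 22.69 and 26.1 CPM in C57BL/6J sample 2. All NOD libraries lay below all C57BL/6J libraries (log2 fold change -2.25 ± 0.28, edgeR adjusted p = 0.00215). Both Itga5 and Itga6 pair with beta 1, and Itgb1 itself had 203.4 ± 7.23 CPM in NOD and 211.7 ± 10.9 CPM in C57BL/6J (-0.06 ± 0.16, edgeR adjusted p = 0.935). The other partner of alpha 6, Itgb4, was scarce, at 1.00 ± 0.0267 CPM in NOD and 3.09 ± 0.815 CPM in C57BL/6J (-1.62 ± 0.43, edgeR adjusted p = 0.0900). Its adjusted p ranged from 0.0205 to 0.791 over the alternatives. Itgal, the most abundant other chain by CPM, had 354.3 ± 31.8 CPM in NOD and 450.0 ± 44.5 CPM in C57BL/6J (-0.34 ± 0.17, edgeR adjusted p = 0.463).

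Rapgef4 (ENSMUSG00000049044, chromosome 2, 71981240 to 72257474, plus strand) had the widest strain difference of the 6. Its level was 49.96 and 50.9 CPM in the libraries of NOD sample 1 and 52.7 and 43.4 CPM in those of NOD sample 2. The C57BL/6J libraries had 4.72 and 5.10 CPM in sample 1 and 4.47 and 5.26 CPM in sample 2. No library of either strain came near the other strain, and the spread within a strain was at most 1.21-fold. The means were 49.5 ± 1.57 CPM in NOD and 4.78 ± 0.0512 CPM in C57BL/6J, a log2 fold change of 3.37 ± 0.21 (SE). The C57BL/6J value rests on 46 to 71 reads a library, the NOD value on 1148 to 1598. Per kb of exon, Rapgef4 stood above 57.5% of tested protein-coding genes in NOD and above 18.8% in C57BL/6J. The 4 genes that overlap it reached at most 0.302 CPM.

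Rapgef3, which encodes EPAC1, the other cyclic AMP-regulated exchange factor, was the more abundant of the pair in both strains. Rapgef3 had 81.9 ± 3.40 CPM in NOD and 106.8 ± 6.07 CPM in C57BL/6J (-0.38 ± 0.16, edgeR adjusted p = 0.337). Rapgef4 made up 32.1% to 38.0% of the summed level per kb of the pair in NOD libraries, against 3.82% to 4.75% in C57BL/6J libraries.

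**Figure D3:**
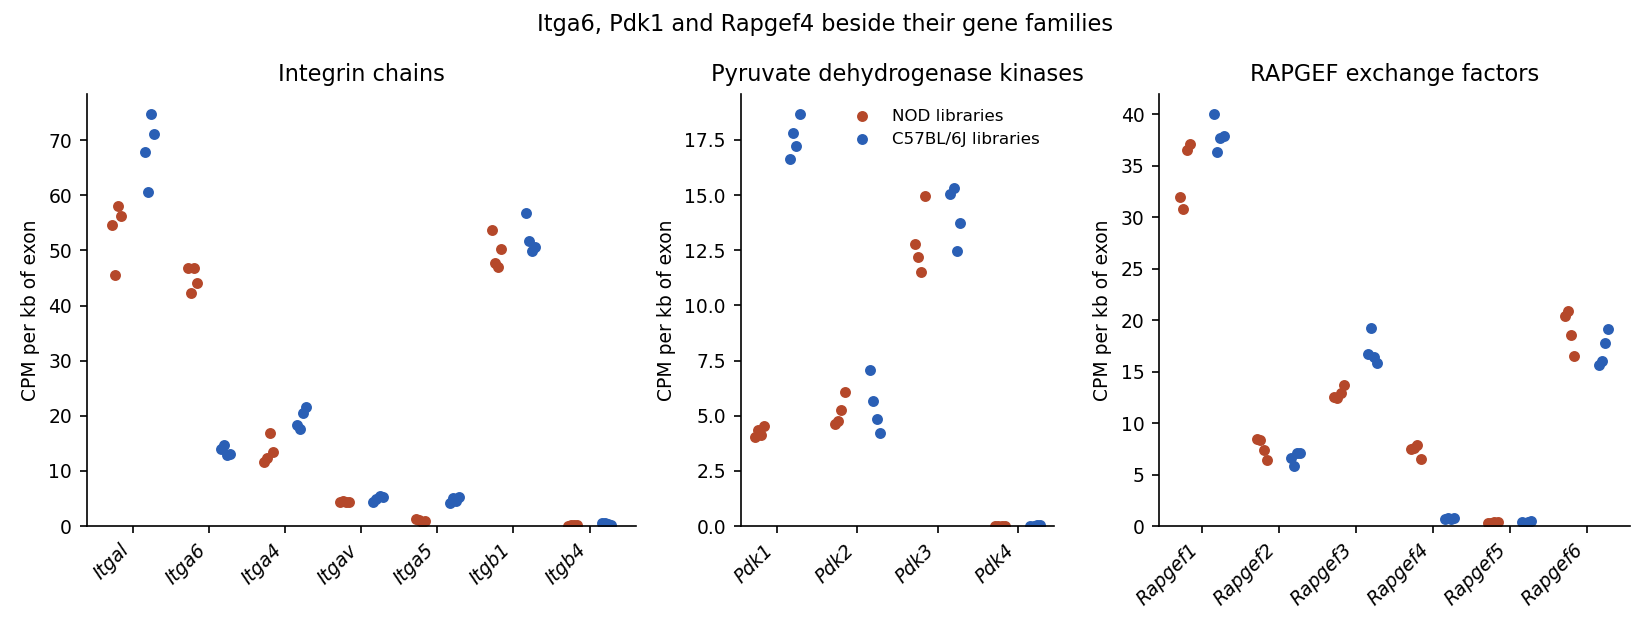
CPM per kb of exon (linear axes from 0) are shown for each library of NOD and C57BL/6J, for integrin chains, pyruvate dehydrogenase kinases and RAPGEF exchange factors. Itga6 and Rapgef4 have their 4 NOD points above the 4 C57BL/6J points, Pdk1 and Itga5 have them below, and most relatives lie close together.

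Of 19 other genes of the Rap pathway that were tested (exchange factors, Rap GTPases, their inactivators and effectors), 1 was higher and 1 lower in NOD (5.26% each, against 1.91% and 1.78% of all tested genes), and 17 did not pass, with a median log2 fold change of -0.01. DESeq2 called 2 of the 19, and 4 had an unadjusted p under 0.05. Both genes that passed encode GTPase-activating proteins, which switch Rap off. Rap1gap2 was scarce, with 4.25 and 1.72 CPM in NOD sample 1 and 3.79 and 3.40 CPM in NOD sample 2, against 0.560 and 0.204 CPM in C57BL/6J sample 1 and 0.252 and 0.458 CPM in C57BL/6J sample 2. It was higher in NOD in every library (log2 fold change 3.20 ± 0.49, edgeR adjusted p = 0.00690), but the call was lost when either C57BL/6J sample was left out (0.0552 for sample 1, 0.0513 for sample 2, as adjusted p) and on the libraries with T number 2 alone (adjusted p = 0.0967). Sipa1l1 had 91.8, 86.6, 85.4 and 73.2 CPM in the NOD libraries and 165.3, 179.2, 209.3 and 202.2 CPM in the C57BL/6J libraries. It was lower in every NOD library (-1.15 ± 0.18, edgeR adjusted p = 0.00733), and its adjusted p stayed at or below 0.0482 in all 12 alternatives. Rasgrp1, the most abundant of the list and an exchange factor that acts below the T cell receptor, had 799.3 ± 20.6 CPM in NOD and 849.8 ± 4.85 CPM in C57BL/6J (-0.09 ± 0.16, edgeR adjusted p = 0.902).

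Pdk1 (ENSMUSG00000006494, chromosome 2, 71873224 to 71903858, plus strand) lies between the 2 genes that were higher in NOD and went the other way. Its level was 31.2 and 33.9 CPM in the libraries of NOD sample 1 and 32.1 and 35.3 CPM in those of NOD sample 2, against 129.5 and 138.4 CPM in C57BL/6J sample 1 and 133.9 and 145.2 CPM in C57BL/6J sample 2. All 4 NOD libraries were below all 4 C57BL/6J libraries, and libraries of 1 strain differed by at most 1.13-fold. The means were 33.2 ± 0.687 CPM in NOD and 134.5 ± 4.35 CPM in C57BL/6J, a log2 fold change of -2.02 ± 0.16 (SE). Per kb of exon, Pdk1 stood at 4.26 ± 0.0883 CPM in NOD and 17.3 ± 0.560 CPM in C57BL/6J, above 43.2% of tested protein-coding genes in NOD and above 79.6% in C57BL/6J. No annotated gene overlaps it.

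The order of the pyruvate dehydrogenase kinases differed between strains. Of their summed level per kb, Pdk1 held 17.7% to 20.5% in NOD libraries and 42.9% to 51.0% in C57BL/6J libraries. Pdk3 held 55.2% to 59.7% in NOD and 36.0% to 39.5% in C57BL/6J, and Pdk2 held 21.5% to 25.1% in NOD and 11.5% to 18.3% in C57BL/6J. Per kb, Pdk1 was thus the lowest of the 3 in NOD in every library and the highest in C57BL/6J in every library. The place in NOD depends on the division by exon length, since Pdk1 had 33.2 ± 0.687 CPM there, Pdk2 16.4 ± 2.14 and Pdk3 32.9 ± 1.07. Pdk4 had 0 counts in all NOD libraries and at most 0.104% of the sum in C57BL/6J libraries.

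In CPM neither of the other kinases passed the test. Pdk2 had 16.4 ± 2.14 CPM in NOD and 17.4 ± 3.93 CPM in C57BL/6J (-0.09 ± 0.25, edgeR adjusted p = 0.942). Pdk3 had 32.9 ± 1.07 CPM in NOD and 35.6 ± 3.78 CPM in C57BL/6J (-0.11 ± 0.19, edgeR adjusted p = 0.890). Of 13 other tested genes of the pyruvate dehydrogenase complex, its kinases, phosphatases and pyruvate carriers, 0 passed edgeR's test in either direction, 0 passed DESeq2's and 0 had an unadjusted p under 0.05, with a median log2 fold change of 0.07 and a range from -0.35 to 0.45. The most abundant, Pdha1, the subunit that the kinases phosphorylate, had 140.3 ± 11.6 CPM in NOD and 173.9 ± 5.04 CPM in C57BL/6J (-0.31 ± 0.16, edgeR adjusted p = 0.495).

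Ratios of neighbours within a library do not depend on depth or scaling. The count of Itga6 over that of Pdk1 was 13.5, 11.3, 13.2 and 11.3 in the NOD libraries, against 0.970, 0.954, 0.874 and 0.809 in the C57BL/6J libraries. The genes differ in length, so such a ratio compares the strains and not the levels of the genes. Rapgef4 over Pdk1 was 1.23 to 1.64 in NOD and 0.0334 to 0.0368 in C57BL/6J. Itga6 over Rapgef4 was 7.51 to 9.17 in NOD and 22.3 to 26.6 in C57BL/6J, since Rapgef4 had the larger fold difference of the 2. Pdk1 over Slc25a12 was 0.709 to 0.842 in NOD and 1.61 to 2.0 in C57BL/6J. In all 4 ratios the NOD libraries and the C57BL/6J libraries formed ranges that did not overlap. The ratios use only the 4 neighbours whose own libraries did not overlap, and these were chosen by this contrast. Nothing further is therefore read from that separation.

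Slc25a12 (ENSMUSG00000027010, chromosome 2, 71271063 to 71367749, minus strand) was lower in NOD. Its level was 41.5 and 40.4 CPM in the libraries of NOD sample 1 and 45.25 and 41.9 CPM in those of NOD sample 2, against 79.9 and 85.99 CPM in C57BL/6J sample 1 and 72.03 and 72.65 CPM in C57BL/6J sample 2. The strains did not overlap, and the lowest C57BL/6J library was well above the highest NOD library. The means were 42.5 ± 1.86 CPM in NOD and 76.7 ± 6.54 CPM in C57BL/6J, a log2 fold change of -0.85 ± 0.17 (SE). Gm13641, which lies inside Slc25a12 on the opposite strand, had 1.25 to 1.59 CPM in NOD and 2.29 to 3.98 CPM in C57BL/6J (-0.93 ± 0.42, edgeR adjusted p = 0.396). The strand setting of the counting is not given in the sources used here, so reads of this pair may not be separate.

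Slc25a12 was the main aspartate-glutamate carrier in both strains, at 68.9% to 82.5% of the summed level per kb of the 2 carriers in NOD and 84.2% to 89.8% in C57BL/6J. The other carrier, Slc25a13 (citrin), had 7.42 ± 2.52 CPM in NOD and 6.03 ± 1.53 CPM in C57BL/6J (0.30 ± 0.36, edgeR adjusted p = 0.845). Of 6 other tested genes of the malate-aspartate shuttle, 0 passed in edgeR, 0 in DESeq2 and 0 at an unadjusted p under 0.05, with a median log2 fold change of -0.11. Mdh2, the mitochondrial malate dehydrogenase and the most abundant of them, had 145.8 ± 24.3 CPM in NOD and 160.7 ± 17.8 CPM in C57BL/6J (-0.14 ± 0.18, edgeR adjusted p = 0.856).

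Hat1 (ENSMUSG00000027018, chromosome 2, 71388958 to 71441622, plus strand) overlapped between the strains. Its level was 33.9 and 28.5 CPM in the libraries of NOD sample 1 and 36.3 and 44.3 CPM in those of NOD sample 2, against 49.4 and 43.15 CPM in C57BL/6J sample 1 and 45.6 and 45.9 CPM in C57BL/6J sample 2. Sample 1 of NOD was below every C57BL/6J library, and 1 library of NOD sample 2 lay within the C57BL/6J range. The means were 35.8 ± 6.11 CPM in NOD and 45.8 ± 0.240 CPM in C57BL/6J, and the log2 fold change was -0.36 ± 0.19 (SE). Leaving out NOD sample 2 made it -0.55, and leaving out NOD sample 1 made it -0.19.

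The 2 NOD samples differed in the same direction in genes that work with Hat1. Newly made histones H3 and H4 are bound by a set of chaperones, and several of these genes are known to be highest in cells that copy their DNA. Hat1 was 1.27-fold higher in NOD sample 2 than in NOD sample 1, and 0.993-fold in C57BL/6J sample 2 against sample 1. The libraries within a NOD sample differed nearly as much for Hat1, by 1.19-fold in sample 1 and 1.22-fold in sample 2. Of 11 partner and chaperone genes, 10 were higher in NOD sample 2, with a median log2 ratio of 0.73, against -0.03 over all tested genes. In C57BL/6J, 4 of the 11 were higher in sample 2, with a median of -0.09. Chaf1a, a subunit of the chromatin assembly factor CAF-1, had 72.41 and 72.0 CPM in the libraries of NOD sample 2, 21.8 and 17.1 CPM in those of NOD sample 1, and 64.4 to 68.8 CPM in C57BL/6J.

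**Figure D4:**
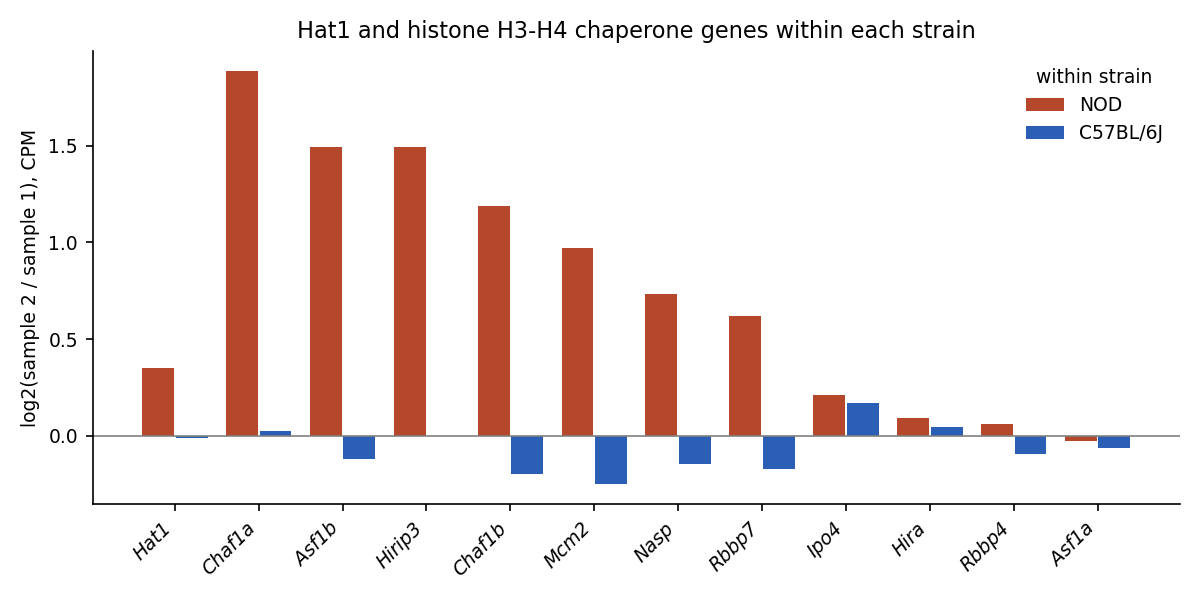
Bars give the log2 ratio of CPM between sample 2 and sample 1 within NOD and within C57BL/6J for Hat1 and 11 partner and chaperone genes. The NOD bars reach 1.88 for Chaf1a and are above 0 for all but Asf1a, while the C57BL/6J bars lie between -0.25 and 0.17.

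Between strains, 0 of these 11 genes passed edgeR's test in the comparison of all 4 samples, 0 passed DESeq2's and 0 had an unadjusted p under 0.05, and their median log2 fold change was -0.32. Without NOD sample 2, the most negative log2 fold changes of the list were -1.77 for Chaf1a, -1.43 for Hirip3, -1.39 for Asf1b and -0.98 for Mcm2. Without NOD sample 1, the values of these genes were 0.13, 0.07, 0.12 and 0.001 in the same order. Each of these fits holds 1 NOD sample, so it does not measure the spread among NOD samples. Hat1 differed between the NOD samples in the same direction as most of this list. With 2 NOD samples, any gene goes either with or against that difference, so a shared direction shows no link. The part of the sample difference in the Hat1 value was not tested. Rbbp4, the most abundant of the list by CPM and the histone-binding subunit of the HAT1 complex in human cells alongside RBBP7, had 275.9 ± 8.48 CPM in NOD and 282.2 ± 12.8 CPM in C57BL/6J (-0.03 ± 0.16, edgeR adjusted p = 0.965).

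Metap1d (ENSMUSG00000041921, chromosome 2, 71453276 to 71525194, plus strand) showed no separation of the strains. Its level was 6.07 and 4.57 CPM in the libraries of NOD sample 1 and 6.89 and 4.08 CPM in those of NOD sample 2, against 3.84 and 5.30 CPM in C57BL/6J sample 1 and 6.43 and 8.81 CPM in C57BL/6J sample 2. Libraries differed by 1.69-fold within NOD and 2.29-fold within C57BL/6J, on 106 to 209 reads a library in NOD and 48 to 102 in C57BL/6J. The means were 5.48 ± 0.159 CPM in NOD and 5.84 ± 2.01 CPM in C57BL/6J, and the log2 fold change was -0.09 ± 0.36 (SE). Its sign turned with the libraries used, at 0.33 with T number 1 alone, -0.69 with T number 2 alone, 0.30 when C57BL/6J sample 2 was left out and -0.41 when C57BL/6J sample 1 was.

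Metap1d supplied 3.04% to 5.19% of the summed level per kb of the 3 methionine aminopeptidases in NOD and 2.36% to 5.4% in C57BL/6J. Metap2, a cytosolic one and the most abundant gene of its list, had 153.9 ± 14.2 CPM in NOD and 206.4 ± 5.52 CPM in C57BL/6J (-0.42 ± 0.16, edgeR adjusted p = 0.277). Of 8 other tested genes of methionine removal and mitochondrial N-terminal processing, 0 passed in edgeR and 0 in DESeq2, and 1 had an unadjusted p under 0.05, with a median log2 fold change of -0.07. Over the 6 lists, 1 of 75 tested genes (1.33%) was higher and 2 (2.67%) were lower in NOD, against 1.91% and 1.78% of all tested genes.

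By level per kb of exon, the order of the neighbours in NOD was Itga6 (45.3), Hat1 (12.4), Rapgef4 (7.42), Slc25a12 (5.78), Pdk1 (4.26) and Metap1d (1.21). In C57BL/6J it was Pdk1 (17.3), Hat1 (15.9), Itga6 (13.5), Slc25a12 (10.45), Metap1d (1.29) and Rapgef4 (0.716). Neighbours in that order differed by more than the larger of their SDs (n = 2) in both strains. Apart from Hat1 in NOD and Metap1d in both strains, the coefficient of variation over the 4 libraries of a strain was at most 8.52%, while it was 18.4% for Hat1 in NOD and 24.1% and 34.4% for Metap1d in NOD and C57BL/6J.

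Few of the flanking genes were expressed enough to be tested. From Dync1i2 to Map3k20, both included, the annotation lists 22 other genes, 4 of them protein-coding and 7 with 0 counts in every library, and 3 passed the filter. The homeobox genes Dlx1 and Dlx2, which lie between Metap1d and Itga6, did not. Of the 3, 0 passed edgeR's test and 0 passed DESeq2's, with 1 at an unadjusted p under 0.05. Dync1i2, a subunit of the dynein motor (71211706 to 71263303), lies just before Slc25a12 and had 172.4 ± 17.3 CPM in NOD and 175.4 ± 9.55 CPM in C57BL/6J (-0.03 ± 0.16, edgeR adjusted p = 0.973). Map3k20, the stress kinase ZAK (72285637 to 72442610), lies just after Rapgef4 and had 46.5, 44.98, 41.7 and 39.6 CPM in the NOD libraries, against 23.4, 25.8, 27.7 and 28.6 CPM in the C57BL/6J libraries. Its libraries did not overlap (log2 fold change 0.74 ± 0.19, edgeR adjusted p = 0.0796), and its adjusted p ran from 0.00125 with 8 separate libraries to 0.552 over the alternatives.

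In the 1 Mb on each side, 17 of 40 genes were tested, and 0 were higher and 1 lower in NOD by edgeR, against 1.91% and 1.78% of all tested genes. DESeq2 called 1 as well, and 2 had an unadjusted p under 0.05. The gene that edgeR called was Cybrd1, a ferric reductase of the plasma membrane (71117923 to 71142926), with 0.597 ± 0.0456 CPM in NOD and 2.55 ± 0.394 CPM in C57BL/6J (-2.09 ± 0.45, edgeR adjusted p = 0.0373). This call too was lost when either C57BL/6J sample was left out (0.24 for sample 1, 0.0905 for sample 2, as adjusted p), with T number 2 alone (adjusted p = 0.373) and with a replicate block (adjusted p = 0.07). On the side before Slc25a12, the log2 fold change was below 0 in 7 of 7 tested genes, down to -0.67 for Mettl8 (edgeR adjusted p = 0.0916) apart from Cybrd1. Some of these values lay within 1 SE of 0, as for Gorasp2 (-0.03 ± 0.16) and Myo3b (-0.12 ± 0.64). On the side after Map3k20, the log2 fold change was below 0 in 5 of 10, between -0.30 and 0.54. The median over all tested genes was 0.02.

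Markers of other cells were measured because Itga6 is also made by epithelial, endothelial and other cells of the thymus. Summed epithelial markers came to 7.15 to 8.05 CPM in NOD and 4.03 to 7.55 CPM in C57BL/6J. Epcam made up most of this sum, at 6.547 ± 0.2456 CPM in NOD and 5.034 ± 1.501 CPM in C57BL/6J (0.38 ± 0.345, edgeR adjusted p = 0.7709). The means of Foxn1, Krt5 and Krt8 were under 1 CPM in both strains. Krt5 reached 1.12 CPM in the NOD sample 1 library with T number 2. Its mean was higher in NOD (1.747 ± 0.641, edgeR adjusted p = 0.2498). Of the endothelial markers, Cdh5 and Kdr were under 1 CPM in both strains, and Pecam1, which thymocytes also express, made up nearly all of the sum of 122 to 138 CPM in NOD and 133 to 162 CPM in C57BL/6J. Megakaryocyte markers came to 0.982 to 2.06 CPM in NOD and 0.640 to 1.95 CPM in C57BL/6J, with Gp9 at 0 counts, and B cell markers to 1.94 to 2.87 CPM in NOD and 0.816 to 1.6 CPM in C57BL/6J. Mesenchymal markers stayed at or under 1.25 CPM, and erythroid markers ranged from 1.34 to 12.1 CPM in NOD and from 1.07 to 5.44 CPM in C57BL/6J. Of the tested markers of these cells, edgeR called 0 and DESeq2 0, and 1 epithelial, 1 endothelial and 1 erythroid marker had an unadjusted p under 0.05.

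Myeloid and dendritic markers summed over 6 genes to 16.6 to 31.4 CPM in NOD, against 9.15 to 11.6 CPM in C57BL/6J, without overlap. Most of the sum came from Lyz2 (9.55 ± 3.43 CPM in NOD, 3.85 ± 0.862 CPM in C57BL/6J) and H2-Aa (7.60 ± 0.754 and 3.28 ± 0.110 CPM). Itgam alone went the other way, at 1.35 ± 0.337 CPM in NOD and 1.82 ± 0.577 CPM in C57BL/6J. Of the 6, 1 was higher in edgeR, 3 passed in DESeq2 and 3 had an unadjusted p under 0.05, against 1.91% of all tested genes called higher in edgeR. The one that edgeR called was Csf1r. Csf1r, the receptor of a macrophage growth factor, had 3.56 ± 0.366 CPM in NOD and 0.642 ± 0.278 CPM in C57BL/6J (2.47 ± 0.48, edgeR adjusted p = 0.0233). Of 4 double-negative stage markers, 1 was higher in NOD in edgeR (against 1.91% of all tested genes), 2 passed in DESeq2 and 3 had an unadjusted p under 0.05. The one that edgeR called was Cd44 (1.02 ± 0.23, adjusted p = 0.0474), and Il7r was higher too (1.44 ± 0.45, edgeR adjusted p = 0.168). Il2ra (-0.60 ± 0.26, edgeR adjusted p = 0.354) and Kit (-0.395 ± 0.35, edgeR adjusted p = 0.767) went the other way, with Il2ra lower in every NOD library. The sum of the 4 was 46.4 to 57.3 CPM in NOD and 37.4 to 39.8 CPM in C57BL/6J. Of 10 double-positive stage markers 0 passed in edgeR and 0 in DESeq2, with 4 at an unadjusted p under 0.05, and their sum was 12200 to 14400 CPM in NOD and 15800 to 19900 CPM in C57BL/6J. The libraries did not overlap for 5 of the 10 (17.1% of all tested genes), with Cd8b1 (-0.69 ± 0.18, edgeR adjusted p = 0.0912), Rag1 (-0.61 ± 0.21, 0.217), Dntt (-0.52 ± 0.18, 0.226) and Rag2 (-0.33 ± 0.16, 0.444) below and Ptcra (0.79 ± 0.26, 0.179) above their C57BL/6J libraries in NOD. Markers of mature cells summed to 108 to 124 CPM in NOD and 150 to 165 CPM in C57BL/6J, with 0 of 5 called by edgeR or DESeq2 and 1 at an unadjusted p under 0.05. Itga2b, Itgam, Itgax and Itgb7 stand both in these lists and among the integrin chains. The sums of several lists move with strain, and their part in the differences of Itga6, Rapgef4, Pdk1 and Slc25a12 was not tested.

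Genes elsewhere whose levels followed the same pattern over the 8 libraries were ranked by the root mean square difference of log2(CPM + 1), centred per gene, among 11783 tested protein-coding genes outside the window. For Itga6 the nearest were Snph (0.099), Fbxw10 (0.113) and Ninl (0.123), of which Fbxw10 had 34.2 ± 1.89 CPM in NOD and 8.58 ± 0.551 CPM in C57BL/6J. Snph and Ninl lie on chromosome 2 like Itga6, though outside the window, and Fbxw10 lies on chromosome 11. For Pdk1 they were Matn2 (0.089), Ppfibp2 (0.142) and Pcsk1 (0.143), with Matn2 at 0.579 ± 0.0705 CPM in NOD and 5.40 ± 0.178 CPM in C57BL/6J. For Rapgef4 they were Adam11 (0.144), Zfp990 (0.171) and Trim34b (0.174), with Adam11 at 10.4 ± 1.06 CPM in NOD and 0.190 ± 0.0184 CPM in C57BL/6J. Adding 1 to each CPM flattens low genes, so scarce genes with larger folds, such as Snph at 2.53 ± 0.260 CPM in NOD and 0.0424 ± 0.00257 CPM in C57BL/6J, can rank as most alike.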

How the data were processed

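Total RNA of sorted thymocytes was made into stranded libraries and sequenced as paired reads of 38 and 37 bases, per the labels' protocols. The authors deposited raw counts per gene. The submitters' processing notes name STAR 2.5.0a, HTSeq 0.6.1 and the build GRCm38, while strand setting, annotation release and filters are not given in the sources used here. GRCm38 is the C57BL/6J genome, and how far variants of NOD lower its counts was not tested. Reads outside genes (46.56% to 59.08% of those listed for NOD libraries and 39.98% to 53.94% for C57BL/6J) and ambiguous reads (0.69% to 2.38%) were left out. Identifiers were matched to GENCODE M21 for 53360 genes, with 105 unmatched.

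Libraries of a strain and B number were summed to 4 samples, filtered with filterByExpr, scaled by TMM and tested by robust quasi-likelihood in edgeR 4.0.16 under R 4.3.3 (strain alone in the model, 2 residual degrees of freedom, two-sided), with Benjamini-Hochberg adjustment over 17291 genes and calls at 0.05. The procedure was tested on simulated data. Levels per library use TMM factors of the 8 libraries, and levels per kb divide by the summed exon length.

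Alternatives were RLE factors, DESeq2 1.42.0, no filter, 8 separate libraries, each T number alone, each sample left out, a replicate block and, added after the data were seen, a crossed block. The members, windows and lists were chosen with earlier results of these data known. Named were all called or adjoining genes of the window, the called, most abundant and closest related genes of each list, and the 3 genes most alike in pattern.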

Additional observations from a re-analysis of the deposited data

How the results depend on the processing

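Over 12 alternatives the log2 fold change of Itga6 ranged from 1.66 to 1.80, that of Rapgef4 from 3.20 to 3.48, that of Pdk1 from -2.06 to -1.995, that of Slc25a12 from -0.94 to -0.77 and that of Hat1 from -0.55 to -0.19, while Metap1d changed sign (-0.69 to 0.33). Calls over all genes numbered 637, and 1188 without a filter, 1535 with 8 separate libraries, 342 with T number 2 alone, 651 with RLE factors and 847 with DESeq2. With 1 sample left out they ran from 256 to 1389, the lone sample of its strain being assumed to vary like the others. Higher genes made up 48.0% to 54.4% of the calls. In the window the count of 0 became 1 (Map3k20) without a filter, with 8 separate libraries and with crossed pairs, and was 0 to 1 with a sample left out. In the lists the count of 3 became 9 with 8 separate libraries and was 2 to 7 with a sample left out. Among 91 named genes, 7 of 1075 values lost a call, 19 gained one and 0 reversed a call.

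Samples with the same B number did not deviate together between strains (correlation -0.123), so the numbers are not taken as pairs. The replicate block gave 513 calls over all genes, 0 in the window, 3 in the lists and 0 in the 1 Mb on each side, where Cybrd1 was the 1 call without it. With crossed pairs, an alternative chosen after seeing the data, there were 768 calls over all genes. With 2 samples a strain, and reads of Rapgef4 and Metap1d in C57BL/6J at most 102 a library, small differences could not be detected.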
